A study of Homo sapiens with 9 samples.

Results

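HES1, HES2, HES4, HES5, HES6 and HES7 are 6 human genes for basic helix-loop-helix repressors of the HES family. They were taken by name, and every called interval that overlapped the RefSeq span of a member or the 10 kb on either side was collected from 6 interval lists. This gave 73 intervals of the 174116 in the 6 lists. The members are 6 of the 15842 protein-coding genes for which the RefSeq tables used here give a transcription start. HES3, a further gene of the family, was not among the genes taken. The study asked what loss of FBXO42, the substrate-recognising subunit of a ubiquitin ligase, does to chromatin and to the binding of RBPJ.

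4 lists came from CUT&Tag in HEK293T, an embryonic kidney cell line, in which an antibody to RBPJ directs a transposase to the DNA beside the protein. These were the RBPJ library of FBXO42 wild-type cells, the RBPJ library of FBXO42 KO cells, and 2 libraries titled RBPJ and RBPJK175R, both of which carry the genotype FBXO42 KO. K175R denotes a change of lysine to arginine in RBPJ. How either form was introduced, and whether endogenous RBPJ remained, was not given, so these 2 libraries are called by their titles. The other 2 lists came from ATAC-seq, which maps open chromatin with a free transposase, in Jurkat, a leukaemic T cell line, as FBXO42 wild type and FBXO42 KO. FBXO42 was knocked out with lentiviral CRISPR constructs, and no clone is named in the labels. Each group was 1 library, so no difference has a replicate check, no test between conditions was possible, and intervals given below cover counting error only. RBPJ and ATAC were measured in different cell lines and their lists are set side by side only.

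In Notch signalling, a ligand on a neighbouring cell triggers cleavage of the receptor, and the freed intracellular domain joins RBPJ and a Mastermind coactivator on DNA. Without it, RBPJ is held to work with corepressors at the same sites. Some HES genes, HES1 and HES5 among them, are textbook targets of this complex. HES proteins commonly bind N box and E box sequences, recruit Groucho (TLE) corepressors and repress their own genes. HES1 keeps progenitor cells undifferentiated and its level oscillates. HES5 acts beside it in neural progenitors, HES7 runs the segmentation clock of the embryo, and HES6 is known as an antagonist of HES1. HES4 is a close relative of HES1, and HES2 has been studied less.

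The core of the DNA sequence that RBPJ recognises is TGGGAA, commonly preceded by GT. Some Notch targets carry a head-to-head pair of such sites. The 250 bases before the annotated start are shown for 3 members, from the RefSeq promoter table (GRCh38.p14), because HES1 and HES4 held paired matches and the largest RBPJ intervals of the family, while HES6 held an RBPJ interval over a sequence with no match. Capitals mark GTGGGAA where it occurs. In HES1 they also mark a second TGGGAA. In both they mark TTCACAC as well, which matches GTGNGAA read on the other strand. HES6 has none of these matches.
HES1, chr3:194135898-194136147, plus strand: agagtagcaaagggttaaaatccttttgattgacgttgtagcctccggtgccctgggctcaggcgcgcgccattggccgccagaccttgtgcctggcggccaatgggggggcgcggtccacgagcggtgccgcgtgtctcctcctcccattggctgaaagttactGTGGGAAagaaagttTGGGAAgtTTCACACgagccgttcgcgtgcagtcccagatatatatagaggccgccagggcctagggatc
HES4, chr1:1000098-1000347, minus strand: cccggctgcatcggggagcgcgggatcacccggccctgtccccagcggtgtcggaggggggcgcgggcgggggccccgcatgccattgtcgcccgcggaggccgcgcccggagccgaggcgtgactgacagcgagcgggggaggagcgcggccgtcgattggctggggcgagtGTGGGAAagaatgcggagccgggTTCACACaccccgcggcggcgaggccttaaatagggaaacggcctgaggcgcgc
HES6, chr2:238240039-238240288, minus strand: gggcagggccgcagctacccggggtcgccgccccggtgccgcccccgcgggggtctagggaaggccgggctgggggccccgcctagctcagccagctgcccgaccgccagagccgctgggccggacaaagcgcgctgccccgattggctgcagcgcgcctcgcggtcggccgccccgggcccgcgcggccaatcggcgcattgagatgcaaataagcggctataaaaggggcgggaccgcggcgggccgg

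All 6 members were found in the table, whose promoters run from 250 bases before to 50 bases after the start. Searched on both strands, TGGGAA was present in 22.7% of the 15842 promoters and GTGGGAA in 5.99%, the first motif being contained in the second. HES1 held TGGGAA at 2 places and GTGGGAA at 1. HES4 held 1 GTGGGAA. HES5 held GTGGGAA at 2 places, on opposite strands, which only 38 promoters (0.240%) did. HES2, HES6 and HES7 held neither motif in this window.

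In HES1 and HES4 the GTGGGAA match faces a TTCACAC 16 bases further on. The pair spans −85 to −56 from the start in HES1 and −77 to −48 in HES4. A pair of GTGNGAA and TTCNCAC spaced by 15 to 17 bases occurred in 3 of the 15842 promoters, the third being that of ITIH4, which had no interval in any list. This relaxed pair was searched for after the promoter sequences had been seen. The stricter pair of TGGGAA and TTCCCA at the same spacing was present in 5 promoters and in no member. GTGNGAA alone was present in 12.7% of promoters. CACNAG, the N box core, was present in 36.4% of promoters, with 4 matches in HES1, 1 each in HES2 and HES7, and none in HES4, HES5 and HES6. A match describes the letters only.

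The lists held 42656 intervals for wild-type RBPJ, 36877 for KO RBPJ, 19913 for the library titled RBPJ, 22691 for that titled RBPJK175R, 31886 for wild-type ATAC and 20093 for KO ATAC. The height of an interval is given as the reads piled up at its summit, recovered from the authors' fold and p-value. Its fold is the authors' ratio of summit to local background, taken here to have 1 added to both. Depth was taken from the lowest background of each list. By it the KO RBPJ library had 83.7% of the depth of wild type, the library titled RBPJK175R 55.0% of that titled RBPJ, and the KO ATAC library 42.3% of wild type. Of 9 T cell genes with a start, among them CD3D, CD2 and CD28, 1 (ZAP70) had an ATAC interval at its promoter in the wild-type list and 0 in the KO list. The kidney and epithelial list had 1 of 4 in each ATAC list (CDH2) and 1, 1, 1 and 0 of 4 in the RBPJ lists, in the order given above. The T cell list had 2, 2, 1 and 1 of 9 in the RBPJ lists. The B cell and myeloid list had 0 of 3 in both ATAC lists and 1, 1, 1 and 0 in the RBPJ lists. Over all protein-coding genes the share with a promoter interval was 57.2% in wild-type ATAC and 44.2% in KO ATAC. In the RBPJ lists it was 53.8%, 38.6%, 37.4% and 27.6%. Few promoters of these 9 T cell genes were thus marked in the ATAC lists labelled Jurkat, but the other small lists had few as well. The bearing of this on the ATAC results was not tested.

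Presence at the promoter, meaning at least 1 bp of an interval within 1 kb of the start, differed between the members, no 2 of which had the same pattern over the 6 lists. HES4 was present in all 6 lists, as were 17.5% of all protein-coding genes. HES1 was present in all 4 RBPJ lists and in wild-type ATAC but not in KO ATAC, a pattern shared by 2.1% of genes. Presence in all 4 RBPJ lists, as for HES1, HES4 and HES7, was seen in 20.4% of genes. HES7 was present in them and in neither ATAC list, as were 0.682% of genes. HES6 was present in wild-type and KO RBPJ only (1.3% of genes). HES2 was present in KO RBPJ and in the library titled RBPJ only (0.353%). HES5 had no promoter interval in any list, like 31.4% of genes.

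Counted by list, wild-type RBPJ marked 4 of the 6 promoters, against 53.8% of all protein-coding genes. KO RBPJ marked 5, against 38.6%. The library titled RBPJ marked 4, against 37.4%, and that titled RBPJK175R marked 3, against 27.6%. Wild-type ATAC marked 2, against 57.2%, and KO ATAC marked 1, against 44.2%. With 6 members, these counts describe the genes taken here and were not compared further. HES3, which was not taken, had no promoter interval in any list.

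**Figure D1:**
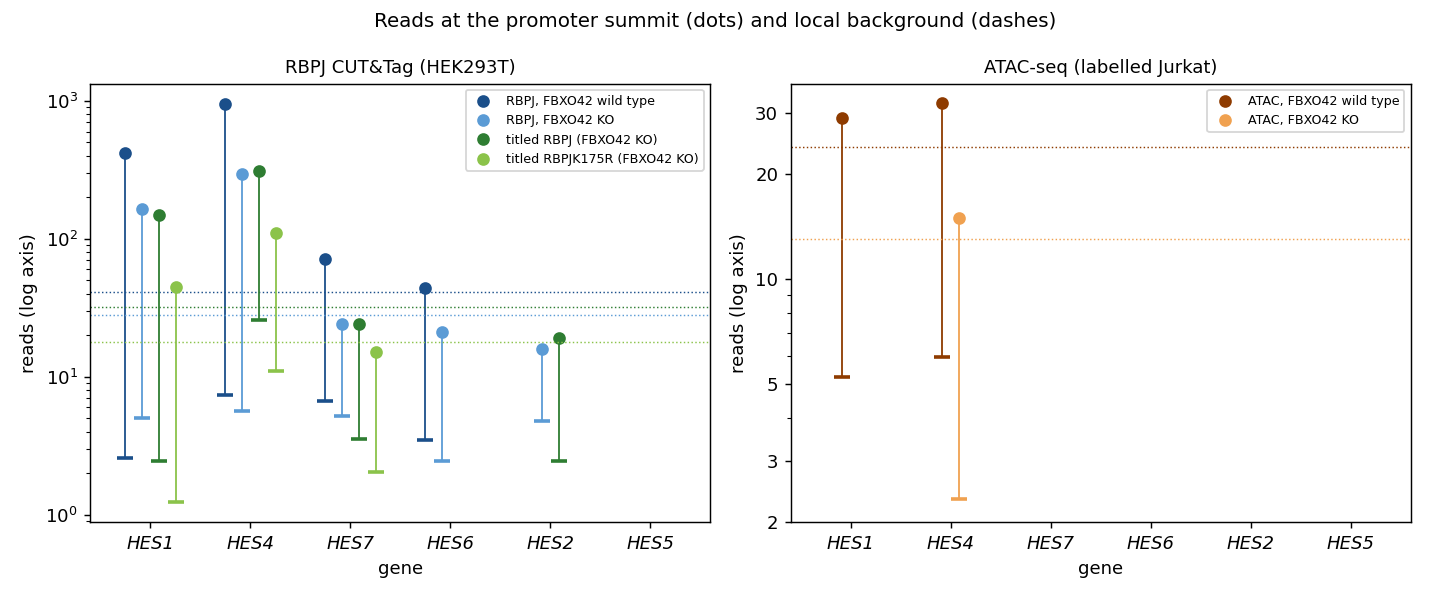
Reads at the summit of the promoter interval (dots) and local background reads at that place (dashes), on log axes, for each member in the 4 RBPJ lists (left) and the 2 ATAC lists (right). Dotted lines are the medians over all protein-coding genes with a promoter interval in that list. HES4 and HES1 stand above the median in every RBPJ list, and in wild-type ATAC they reach 32 and 29 reads, a little above the median of 24.

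HES1 carried a broad RBPJ interval over its start (gene at chr3:194136148-194138732, plus strand). In wild type it ran over chr3:194132622-194138404, a width of 5783 bp, with 416 reads at the summit and a fold of 116. Its fold was above that of 99.8% of the 8522 promoters marked in that list, over a background of 2.60 reads. In KO it was 5158 bp wide (chr3:194132683-194137840) with 165 reads and a fold of 27.4. The library titled RBPJ gave 5251 bp, 150 reads and a fold of 40.9, and that titled RBPJK175R gave 3041 bp, 45 reads and a fold of 20.6. Wild type was thus the highest of the 4 lists in reads and fold, and RBPJK175R the lowest in both.

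The highest point of the HES1 interval was not at the same place in the 4 lists. In wild type the summit lay at −31 bp from the start, 39 bp from the centre of the paired match. In KO it lay at −1294, in the library titled RBPJ at −1292, and in that titled RBPJK175R at −1138. The 3 libraries labelled FBXO42 KO thus peaked more than 1 kb upstream, and 2 of them within 2 bp of each other. Wild type and KO summits were 1263 bp apart. Over the 5546 genes marked in both lists the median distance was 100 bp, and 5.93% were over 1000 bp apart. Wide intervals leave more room between summits, and these 2 were 5783 and 5158 bp wide. The median widths at marked promoters were 1185 bp in wild type and 998 bp in KO. Genes with intervals of like width were not set apart, so how unusual the distance is was not tested. Among marked promoters that hold GTGGGAA, the summit was within 100 bp of a match in 28.1% of 516 in wild type and in 23.2% of 418 in KO. Of all promoters with GTGGGAA, 54.4% were marked in wild type, against 53.8% of all promoters. The same shares were 44.0% against 38.6% in KO, 42.1% against 37.4% in the library titled RBPJ and 33.3% against 27.6% in that titled RBPJK175R. An interval list gives the pileup at the summit only, so heights at the paired match in the other 3 lists were not analysed here.

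The wild-type ATAC interval of HES1 sat at the upstream place as well. It ran over chr3:194134610-194135150, with its summit at −1097, 29 reads and a fold of 4.82. Its edge nearest the gene was at −998, so it counts as a promoter interval by a few bases only, and it is not counted when the promoter is taken as 0.5 kb. It was 41 bp from the RBPJK175R summit and 1066 bp from the wild-type RBPJ summit. KO ATAC had no interval anywhere in the HES1 window. At the depth of that library the 29 reads would scale to 12.3, against a median of 8 and a fewest of 3 reads per interval in that list. Over all protein-coding genes, 14.2% had a promoter interval in wild-type ATAC and not in KO ATAC, and 1.24% the reverse.

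HES1 had a second strong RBPJ site beyond its 3′ end. Its summit lay between 2055 and 2279 bp past the end of the gene in the 4 RBPJ lists. The reads there were 198 in wild type, 79 in KO, 47 in the library titled RBPJ and 17 in that titled RBPJK175R, and the folds were 40.9, 22.8, 19.3 and 10.7. Wild type was the highest and RBPJK175R the lowest at both HES1 sites, also per depth. Per depth, the library titled RBPJ was above KO at the promoter and below it here. Wild-type ATAC had an interval with 15 reads and a fold of 3.11 at the same place, 2318 bp past the gene end, and KO ATAC had none. No start of another gene lies within 1 kb of these intervals.

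Together the RBPJ intervals covered 48.1% of the HES1 window in wild type, 40.7% in KO, 39.6% in the library titled RBPJ and 36.9% in that titled RBPJK175R. Among the 2782 protein-coding genes whose window is no longer than the longest of the members (26043 bp), 2.52% were covered as much or more in wild type and 4.17% in KO. In the library titled RBPJ the share was 0.0359%, and in that titled RBPJK175R it was 0.0719%. HES1 therefore ranked among the most widely covered of these genes in the latter 2 lists.

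HES4 (chr1:998964-1000097, minus strand) had the tallest RBPJ promoter interval of the family in every RBPJ list. The summit held 957 reads in wild type, 296 in KO, 309 in the library titled RBPJ and 111 in that titled RBPJK175R. In wild type 28 of 8522 marked promoters had as many reads or more. The widths were 7972, 3073, 1937 and 1071 bp in the same order, and the wild-type interval ran over chr1:994753-1002724, past the whole gene. The summits stayed close together, at −307, −211, −492 and −322 bp from the start. The paired match is centred downstream of all of them, with the wild-type summit at −245 bp from its centre and the KO summit at −149.

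Reads and fold ordered the lists differently at HES4. The folds were 114 in wild type, 44.4 in KO, 11.5 in the library titled RBPJ and 9.39 in that titled RBPJK175R. The local background there was 7.38 and 5.69 reads in wild type and KO, but 25.9 in the library titled RBPJ, 20.4 times the lowest background of that list and above 98.7% of its marked promoters. In the library titled RBPJK175R it was 10.9 reads, 16.2 times the lowest. KO and the library titled RBPJ had similar raw reads, but the latter had 71.1% of the KO depth, so it was the higher per depth and the lower in fold. Whether the control or the sample sets that background was not tested.

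HES4 was the one member with ATAC intervals at its promoter in both ATAC lists. Wild type had 32 reads and a fold of 4.74 with the summit at −568, and KO had 15 reads and a fold of 4.81 with the summit at −587. The 2 summits were 19 bp apart, and both lay inside all 4 RBPJ intervals. Outside the promoter, HES4 had 2 further intervals in wild-type RBPJ, 5 in KO, 1 in the library titled RBPJ and none in that titled RBPJK175R. None of these was near the promoter interval in height, the folds being between 3.15 and 5.68.

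**Figure D2:**
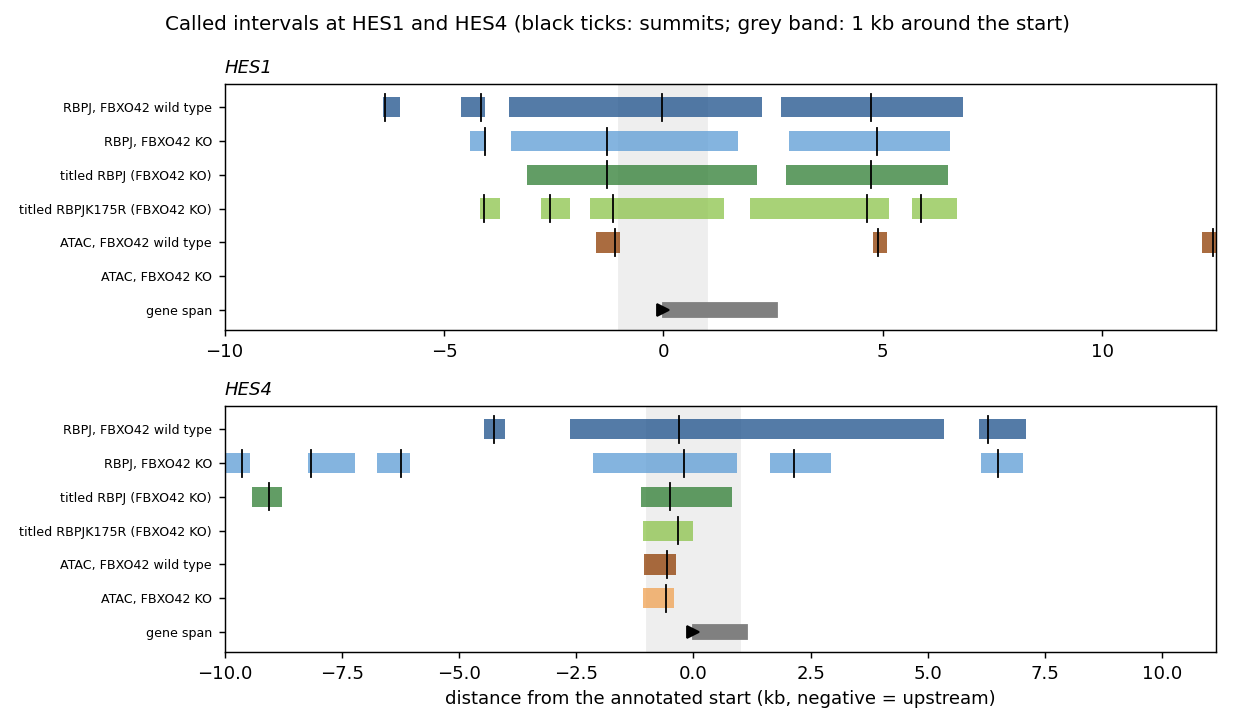
Called intervals (bars) and their summits (black ticks) in the 6 lists within the windows of HES1 and HES4, by distance from the annotated start in kb, with the gene span in grey and 1 kb around the start shaded. At HES1 the wild-type summit sits at the start and the other RBPJ summits sit between −1294 and −1138 bp, while at HES4 the RBPJ summits lie between −492 and −211 bp.

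HES7 (chr17:8120592-8126634, minus strand) showed intervals at 3 places rather than 1. The promoter table puts its start at position 8124106, while the annotated span reaches 2528 bp further upstream. At the table's start, KO had 24 reads (fold 4.06), the library titled RBPJ 24 (5.26) and that titled RBPJK175R 15 (5.25). In wild type a single interval of 4756 bp, chr17:8122712-8127467, covered both the table's start and the upstream end, with its 72 reads and a fold of 9.51 at −2110. At the upstream end the other lists had separate intervals with 18 reads in KO, 29 in the library titled RBPJ and 19 in that titled RBPJK175R. The wild-type and KO values of HES7 at the promoter therefore come from places 2550 bp apart.

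The third place was the 3′ end of HES7, and the ATAC intervals of its window lay there and beside it. RBPJ reads were 77 in wild type, 36 in KO, 43 in the library titled RBPJ and 26 in that titled RBPJK175R. ATAC reads were 37 in wild type and 18 in KO. A second ATAC interval, 29 reads in wild type and 22 in KO, lay at the start of the neighbouring gene ALOXE3. This stretch also holds 4 tRNA genes, TRK-TTT3-5, TRQ-CTG1-5, TRL-TAG1-1 and TRR-TCT2-1. All 4 were overlapped by wild-type RBPJ, KO RBPJ and wild-type ATAC intervals. The other lists each overlapped 3 of them. Another tRNA gene, TRG-GCC2-6, lies at the upstream end of HES7. The wild-type RBPJ interval with the 72-read summit overlapped it, 435 bp from that summit. A KO RBPJ interval overlapped it too, and no interval of the other lists did. Of 443 tRNA genes in the annotation, the RBPJ lists overlapped 43.8%, 32.3%, 38.4% and 33.4%, and the ATAC lists 45.8% and 34.5%, so intervals at tRNA genes were common throughout the lists.

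HES6 (chr2:238238267-238240038, minus strand) had a modest RBPJ interval at its start in 2 lists. In wild type it was 1711 bp wide with 44 reads, a fold of 10.1 and its summit at 99 bp, just inside the gene. In KO it was 787 bp wide with 21 reads, a fold of 6.34 and its summit at −393, and a second, weaker interval of 20 reads (fold 2.75) lay in the gene. The whole window held 2 RBPJ intervals in wild type and 5 in KO. The wild-type value was close to the list's median of 41.5 reads at marked promoters. Neither library with an RBPJ title had an interval anywhere in the window. The one ATAC interval was in wild type, with its summit at 5424 bp past the start, 26 reads and a fold of 8.85, and it overlapped no RBPJ interval.

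HES2 (chr1:6415232-6419919, minus strand) had more RBPJ intervals in KO than in wild type. So did HES4, with 3 in wild type and 6 in KO, and HES6, with 2 and 5. HES1 had 4 in wild type and 3 in KO, and HES7 had 4 in each. Wild-type RBPJ had 2 intervals in the HES2 window and neither was at the promoter, while KO had 8. The 8 had 15 to 19 reads, against a median of 15 per interval in that list. Their folds of 2.57 to 4.87 ranked between 3.25% and 76.0% of the list. Of the 8 intervals, 2 lay at the promoter, and those furthest upstream had their summits in the neighbouring gene ESPN. Of the 2782 windows of like length, 2.91% held 8 or more intervals in KO. At least 4 times as many intervals in KO as in wild type were seen in 0.971% of them, and more in KO than in wild type in 23.3%. The library titled RBPJ had 3 intervals, with 19 reads (fold 5.48) at the promoter, and that titled RBPJK175R had 2, both at the 3′ side of the gene. The 19 reads would scale to 10.5 at the depth of the RBPJK175R library, against a median of 9 reads per interval there. The one ATAC interval, in wild type, had 9 reads and lay past the 3′ end.

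HES5 (chr1:2528745-2530263, minus strand) had no interval in its window in any list, as was so for 29% of windows of like length. The nearest interval was 86.6 kb away in wild-type RBPJ and between 104.9 and 122.8 kb away in the other lists. The stretch free of intervals of all 6 lists ran over chr1:2442189-2635171, 193.0 kb, and held the starts of 6 protein-coding genes, PLCH2, PANK4, HES5, TNFRSF14, PRXL2B and MMEL1. Such stretches of this length or more numbered 2420, of which 49 held as many starts. An empty stretch gives no height for HES5, so it is not read as a level of binding, although HES5 holds 2 matches to GTGGGAA.

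**Figure D3:**
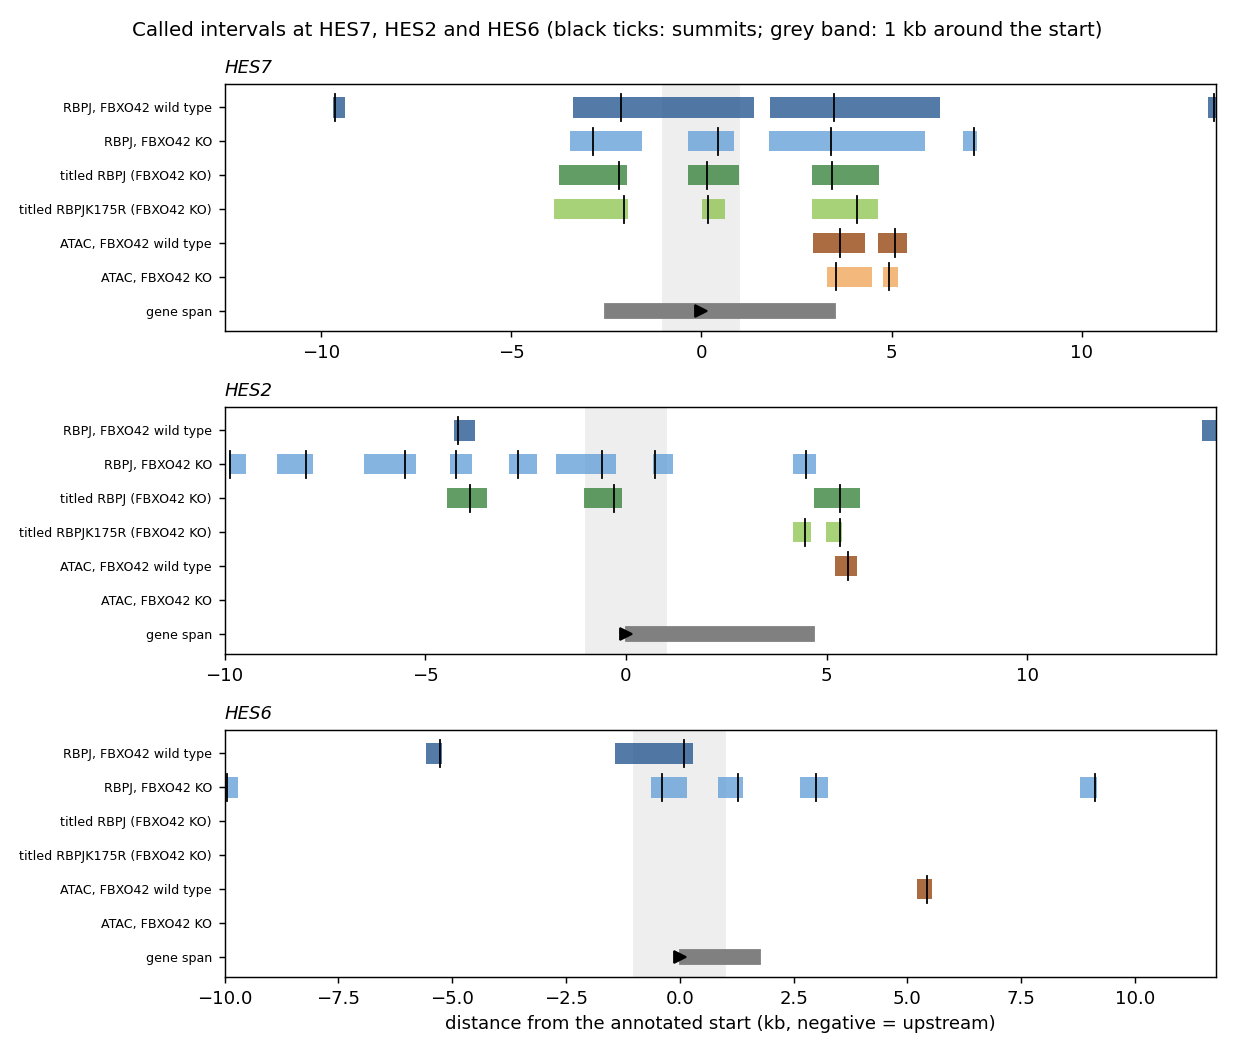
Called intervals (bars) and summits (black ticks) in the 6 lists within the windows of HES7, HES2 and HES6, by distance from the annotated start in kb, with the gene span in grey and 1 kb around the start shaded. HES7 has RBPJ intervals at its upstream end, its start and its 3′ end with ATAC only at the last, HES2 has 8 scattered intervals in FBXO42 KO, and HES6 has none in the libraries titled RBPJ and RBPJK175R. HES5, with none in any list, is not drawn.

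Over the 6 windows, 21 of the 73 intervals lay at promoters, 12 in gene bodies, 20 in 5′ flanks and 20 in 3′ flanks. By list there were 15 in wild-type RBPJ, 26 in KO, 10 in the library titled RBPJ, 11 in that titled RBPJK175R, 8 in wild-type ATAC and 3 in KO ATAC. Members with any interval in the window numbered 5, 5, 4, 4, 5 and 2 in that order, against 56.7%, 52.2%, 47.3%, 42.3%, 57% and 45.9% of the windows of like length. KO RBPJ thus had 11 more intervals than wild type while covering nearly the same share of the windows, 24.2% against 24.0%. Among intervals with a −log10 q of at least 5 the counts were 10 in wild type and 13 in KO, and at 10 or more they were 6 and 5. The excess in KO thus lay among intervals with a −log10 q under 10. The share was 14.1% in the library titled RBPJ and 10.5% in that titled RBPJK175R.

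The gap in fold between promoter intervals and the others was widest in wild type among the RBPJ lists. There the median fold was 62.2 over 4 promoter intervals and 4.03 over 11 others, and the median widths were 5270 and 540 bp. No promoter was near that median of 62.2. The folds were 116 at HES1, 114 at HES4, 10.1 at HES6 and 9.51 at HES7, so the gap rests mainly on HES1 and HES4. In KO the medians were 4.06 over 7 and 3.69 over 19. The 7 include 2 intervals of HES2 and a second of HES6, and over the 4 members marked in both lists the KO median was 16.9. In the library titled RBPJ they were 8.46 over 4 and 6.18 over 6, and in that titled RBPJK175R 9.39 over 3 and 6.20 over 8. All 4 wild-type promoter intervals overlapped a KO interval, as did 60.2% of promoter intervals over the whole list. Of the 11 others 6 did, against 25.4%. In the reverse direction 4 of 7 KO promoter intervals overlapped wild type, against 86%, and 7 of 19 others, against 29.1%. Of the 8 wild-type ATAC intervals 6 overlapped an RBPJ interval, against 51.2% of that list, and 5 overlapped all 4 RBPJ lists, against 14.3%. Among the 5, the interval at the start of ALOXE3 met the libraries with RBPJ titles at its edge only. It ended at chr17:8119465, while theirs began at 8119441 (titled RBPJ) and 8119450 (titled RBPJK175R).

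For wild type against KO, the promoter reads of 4 members were compared per depth. HES1 went from 416 to 165 reads, a KO to wild-type ratio of 0.474 after scaling for depth (95% interval 0.393 to 0.569). HES4 went from 957 to 296, a ratio of 0.370 (0.323 to 0.422). HES7 went from 72 to 24, 0.398 (0.240 to 0.640), and HES6 from 44 to 21, 0.570 (0.322 to 0.980). The HES1 and HES7 ratios set summits at different places against each other. All 4 ratios were below 1, but so was the median over the 5546 genes marked in both lists (35% of genes), 0.640. A ratio under 0.5, as seen in 3 of the 4 members, was found in 22.5% of those genes. In reads per depth HES4 ranked lowest, at or above 4.90% of genes, then HES7 at 8.08%, HES1 at 18.2% and HES6 at 36.5%. With the authors' fold in place of reads the order turned. HES1 was the lowest with a ratio of 0.236, below HES4 at 0.389, HES7 at 0.427 and HES6 at 0.628. The median fold ratio over the 5546 genes was 0.670. The fold takes in the local background, which at the HES1 summits was 2.60 reads in wild type and 5.05 in KO.

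Tall promoters were also set apart, chosen by the wild-type reads that are also the denominator of the ratio, so this choice is not independent of it. Among the 557 genes in the top 10% by wild-type reads, which include HES1 and HES4, the median was 0.581. Of these, 24.6% had a ratio at or below that of HES1 and 8.08% at or below that of HES4. At the site downstream of HES1 the ratio was 0.477 (0.363 to 0.622), within the counting interval of the HES1 promoter. At the upstream end of HES7 it was 0.299 (0.168 to 0.506), and at its 3′ end 0.559 (0.365 to 0.840).

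In the comparison of RBPJK175R with RBPJ, 3 members had promoter intervals in both lists. HES1 went from 150 to 45 reads, a ratio of 0.545 (0.382 to 0.765), and HES4 from 309 to 111, 0.653 (0.521 to 0.813). HES7 went from 24 to 15, 1.14 (0.554 to 2.26), an interval too wide to place it. The median over the 3788 genes marked in both lists (23.9% of genes) was 0.909, above the counting intervals of HES1 and HES4. With the authors' fold in place of reads the median was 0.860. HES4 was then close to it at 0.820, HES1 was at 0.504 and HES7 at 0.997. In the top 10% by reads of the library titled RBPJ, chosen in the same way, the median ratio of reads was 0.802. That value is within the counting interval of HES4 and above that of HES1. Of these 381 genes, 12.1% were at or below HES1 and 25.5% at or below HES4. A ratio under 0.5 was found in 5.44% of the 3788 genes and in no member. Downstream of HES1 the ratio was 0.657 (0.354 to 1.17).

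HES2 was the member marked in the library titled RBPJ and not in that titled RBPJK175R, as were 13.4% of genes, while 3.74% showed the reverse. Between wild type and KO, HES2 was marked in KO only, as were 3.57% of genes, against 18.8% marked in wild type only. The HES2 promoter was no longer marked in KO when intervals with a −log10 q under 5 were left out. For ATAC, HES4 alone had intervals in both lists. Its KO to wild-type ratio per depth was 1.11 (0.557 to 2.10), near the median of 1.18 over the 6811 genes marked in both (43% of genes), of which 0.602% were under 0.5.

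**Figure D4:**
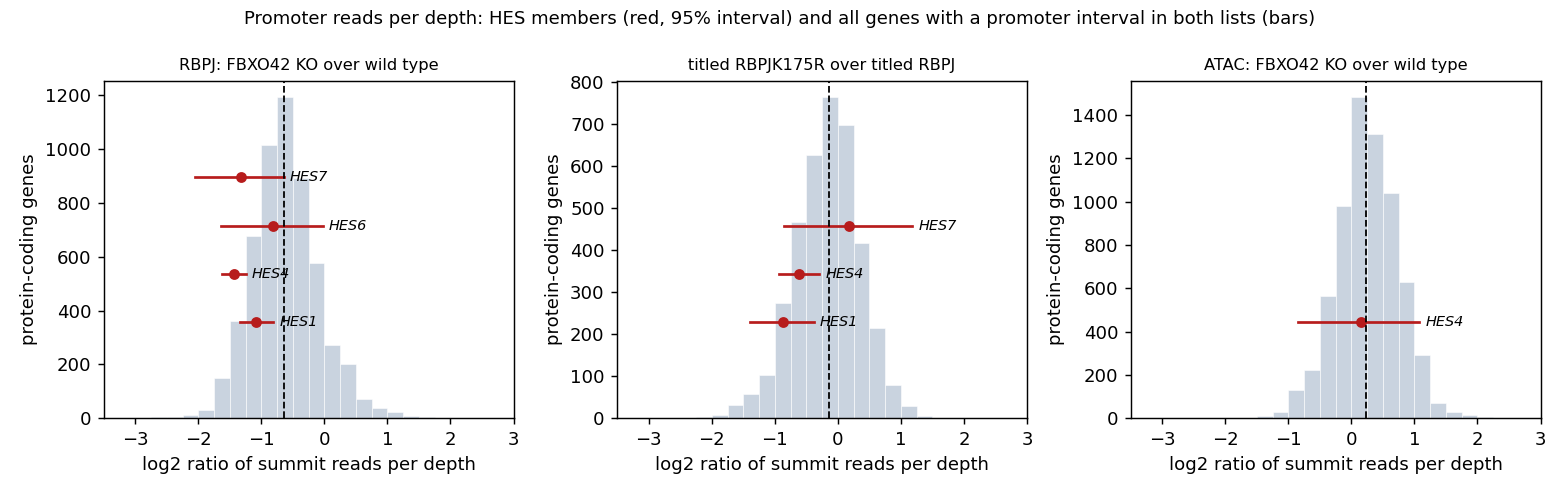
Distribution over all protein-coding genes with a promoter interval in both lists (bars, number of genes) of the log2 ratio of summit reads per depth, with the median dashed, for the 3 comparisons. Red points are HES members with their 95% counting intervals, placed at arbitrary heights. HES4 and HES1 lie left of the median in both RBPJ comparisons, HES6 and HES7 have wide intervals, and HES4 lies near the median for ATAC.

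Likeness to other genes was measured as the largest log2 difference in reads per depth over the 4 RBPJ lists, for the 3228 genes marked in all 4. HES1, HES4 and HES7 could be compared. SLBP was nearest to HES1, with 403, 167, 137 and 47 reads and a largest difference of 0.13, followed by MMAB and MVK, which share the same values, at 0.23. RPL39 (0.38), COPS4 (0.39) and SRCAP (0.42) were nearest to HES4. WDCP (0.13), LGR4 (0.17) and HMGN2 (0.17) were nearest to HES7.

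Relatives and partners of the family were counted from lists drawn up for the pathway. Of the other bHLH-Orange repressors, 5 of 6 genes had a start, and their promoters were marked in 4, 4, 5 and 4 cases in the RBPJ lists and 4 and 2 in the ATAC lists. Over all protein-coding genes the shares were 53.8%, 38.6%, 37.4% and 27.6% in the RBPJ lists and 57.2% and 44.2% in the ATAC lists. HEY2, a Notch target of the heart and vessels, had 239 reads in wild type and 66 in KO, a ratio of 0.330. BHLHE40, a repressor of the circadian and stress responses, had 256 and 93 reads, a ratio of 0.434. HEYL had 102 and 45 reads, and BHLHE41 88 and 41. The median ratio of these 4 was 0.478, against 0.435 for the HES members and 0.640 for all genes. In the RBPJK175R comparison their median was 0.755, against 0.653 for the HES members.

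The 6 genes of the Groucho (TLE) list were marked in 5, 5, 4 and 3 cases by RBPJ and in 5 and 4 by ATAC. TLE4 had 1011 reads in wild type and 485 in KO, a ratio of 0.573, and the median of the 5 shared genes was also 0.573. Of the Notch pathway list, 22 of 27 genes had a start, and RBPJ marked 17, 10, 8 and 6 of them, ATAC 15 and 10. The shares over all protein-coding genes were 53.8%, 38.6%, 37.4% and 27.6% for RBPJ and 57.2% and 44.2% for ATAC. The counts of both gene lists were not compared with these shares further. The median KO to wild-type ratio of 10 shared genes was 0.684. MAML3, a Mastermind coactivator, had the lowest, 0.292 (250 and 61 reads). NRARP, an inhibitor of the Notch complex that is itself a Notch target, had 0.519 (99 and 43 reads). PSENEN, a subunit of the gamma-secretase that cleaves Notch receptors, was at 0.965 (249 and 201 reads), and MAML1, another Mastermind coactivator, at 0.682 (128 and 73 reads).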

How the data were processed

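Each of 6 libraries, 4 of RBPJ CUT&Tag and 2 of ATAC-seq, came with a narrowPeak list, and the 3 IgG libraries did not enter the analysis. Tools listed in the submitters' processing notes are MACS2, Bowtie2, Trim Galore and deepTools, with hg38 as the build. No source used here gives versions, calling settings or control libraries. The authors' fold is a ratio of summit pileup to local background, each with a constant added. The deposited lists also give −log10 p-values, −log10 q-values and a score per interval. The lowest deposited −log10 q was 1.30 to 1.32 in the 6 lists.

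Summit reads and background were solved from the fold and the −log10 p under a Poisson model, with whole reads in 100% of intervals within 0.1% of the −log10 p. In the library titled RBPJ the reads had been scaled by 0.812. Relative depth was the lowest background divided by the shortest interval width. On simulated intervals the solution recovered the reads used to make them. Promoters were 1 kb on each side of the RefSeq start (GRCh38.p14), which 15842 of 20037 protein-coding genes had. Ratios have exact binomial 95% intervals, and PCR copies are not told apart by them. The named genes were the 6 members, their neighbours, up to 4 per other list by fold and the 3 genes most like each member. The members, lists and rules were chosen with earlier results of these data known. Alternatives were other promoter and flank widths, stricter q-values, summit position, scaling and overlap. Python 3.11.15 with numpy 2.4.6, pandas 2.3.3 and scipy 1.17.1 was used.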

Additional observations from a re-analysis of the deposited data

How the results depend on the processing

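With 1 library per group, no value has a replicate check, and depth limits what weak intervals show. No paired analysis was possible because each group has 1 library and the labels carry no replicate numbers. A −log10 q of at least 10 left 3 marked promoters in KO RBPJ, 2 each in the libraries titled RBPJ and RBPJK175R, 1 in wild-type ATAC and 0 in KO ATAC. The promoters lost were those of HES2 and HES7 in the RBPJ lists, of HES1 in wild-type ATAC and of HES4 in KO ATAC. At 5 the HES2 promoter was already lost in KO RBPJ. A promoter of 0.5 kb left 1 in wild-type ATAC. Interval counts over the windows at −log10 q of at least 10 were 6, 5, 4, 5, 3 and 0 in the order of the lists, and 13 in KO RBPJ at 5. A 5 kb flank gave 17 in KO RBPJ. A 20 kb flank gave 28 in wild-type RBPJ, 44 in KO, 19 in the library titled RBPJK175R and 8 in KO ATAC. With the median over shared promoters set to 1, the KO to wild-type median of the members was 0.679, and the ATAC ratio of HES4 turned to 0.938. With the authors' fold in place of reads, the RBPJK175R median was 0.820, HES7 turned to 0.997 and the KO to wild-type ratio of HES1 was 0.236. The fold takes in the local background as well as the reads. That background was 2.60 reads in wild type and 5.05 in KO at HES1. In the libraries titled RBPJ and RBPJK175R it was 25.9 and 10.9 at HES4, and 3.56 and 2.05 at HES7. Why the backgrounds differed was not tested. Requiring 50% overlap of both intervals left 1 of 4 shared promoter intervals between wild type and KO. 2 alternatives were added after seeing the data. Depth as the lowest background alone kept the ratios within their counting intervals, and HES7 placed at its upstream end left the counts of marked promoters as they were.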
